A study of Mus musculus with 15 samples.

Results

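Tuft cells are rare chemosensory cells of the gut epithelium, and the genes that mark them were followed in the colon of mice fed heme, the red iron-containing pigment of meat. The list held 9 genes, Dclk1, Trpm5, Avil, Pou2f3, Gfi1b, Il25, Alox5ap, Ptgs1 and Sh2d6. A probe set of the array was taken for a gene when its annotation gave that symbol and no other, which found 18 probe sets of 8 of the 18193 genes with such a probe set. Dclk1 had 9 of them, Trpm5 had 3, and Avil, Pou2f3, Gfi1b, Il25, Alox5ap and Sh2d6 had 1 each. Ptgs1, the constitutive cyclooxygenase, was not analysed here. The heme group was 9 male C57BL/6 mice aged 11 weeks that ate, for 14 days, a high-fat, low-calcium diet (40% of energy as fat) containing 0.5 umol heme per g. The control group was 6 males of the same strain and age on that diet with no heme. The fat and low calcium were therefore shared by both groups. RNA came from scrapings of the opened colon, which hold other mucosal cells beside the epithelium, and each mouse was hybridised to its own array, so the replicates are biological. Control mouse 5 was not analysed here.

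Tuft cells sense the lumen through a signalling cascade that they share with taste cells, in which G proteins activate phospholipase C beta 2, inositol trisphosphate receptors release calcium, and calcium opens the cation channel Trpm5. Pou2f3 is the transcription factor that the lineage requires. Once activated, the cells release the cytokine Il25 and lipid mediators, which act on innate lymphoid cells in a circuit that returns interleukin 13 to the crypt.

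Array values are log2 expression, and a signal of 20 (4.32 on the log2 scale) was used as the floor, because no detection calls were used here. A bulk scraping cannot tell fewer tuft cells from less RNA per cell. The floor left few of the members measurable: 13 of the 18 probe sets lay under it on every array, and 4 probe sets, of Dclk1, Trpm5 and Avil, passed the filter of at least 6 arrays over it. All array medians lay between 3.11 and 3.24. The main values are also given without control mouse 2, control mouse 4 and heme mouse 6. Both of those controls stood apart in marker sums given below, but no marker sum given here sets heme mouse 6 apart. Of all 17855 probe sets tested, 26.1% were lower in heme mice (limma, adjusted p under 0.05), and in 8.50% every heme mouse was below the lowest control. All 4 tested probe sets of the members were lower. That count carries no weight of its own, since Dclk1 and Trpm5 passed the filter through the control mice, in which they were high, which favours a fall. Avil was over the floor in every mouse of both groups.

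The promoters of these 3 genes are shown because they are the members that passed the filter. The RefSeq table (GRCm38.p6) gives 1 transcript start for Trpm5 and Avil and 2 for Dclk1, whose upstream start makes the long transcript and whose start within the gene makes shorter ones. Each line holds the 250 bases before the transcript start, 5′ to 3′ on the strand of the gene. Capitals mark ATGCAAA or its reverse complement.
Avil, chr10:127000459-127000708, plus strand: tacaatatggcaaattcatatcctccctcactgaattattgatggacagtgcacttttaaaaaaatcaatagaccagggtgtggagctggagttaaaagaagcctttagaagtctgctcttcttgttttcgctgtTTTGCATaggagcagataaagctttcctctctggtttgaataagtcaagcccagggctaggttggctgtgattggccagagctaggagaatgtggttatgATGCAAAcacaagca
Trpm5, chr7:143094643-143094892, minus strand: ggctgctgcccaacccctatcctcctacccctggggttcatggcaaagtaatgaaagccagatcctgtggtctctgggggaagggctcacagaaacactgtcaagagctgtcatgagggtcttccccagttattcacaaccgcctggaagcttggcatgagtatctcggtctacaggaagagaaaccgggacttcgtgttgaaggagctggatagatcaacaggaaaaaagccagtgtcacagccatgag
Dclk1, chr3:55242114-55242363, plus strand: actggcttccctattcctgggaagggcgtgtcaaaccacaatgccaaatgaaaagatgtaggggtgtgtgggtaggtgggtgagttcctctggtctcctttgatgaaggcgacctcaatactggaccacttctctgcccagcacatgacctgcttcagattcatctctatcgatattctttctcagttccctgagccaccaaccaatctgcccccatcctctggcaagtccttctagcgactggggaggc
Dclk1, chr3:55461478-55461727, plus strand: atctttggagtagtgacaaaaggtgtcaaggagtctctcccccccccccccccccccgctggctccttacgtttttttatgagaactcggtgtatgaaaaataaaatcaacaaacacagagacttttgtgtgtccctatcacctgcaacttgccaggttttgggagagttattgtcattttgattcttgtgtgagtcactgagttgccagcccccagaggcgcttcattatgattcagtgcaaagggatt
Pou2f3 belongs to the octamer-binding POU factors, so these windows were searched on both strands for the octamer ATGCAAAT, for ATGCNAAT and, as a further motif, for the E-box CAGCTG. None of the 3 was found in the 7 windows that the table holds for Avil, Trpm5, Dclk1, Sh2d6, Gfi1b and Ptgs1, which says only that these letters are not there. Of 32851 such windows in the table, 1.60% hold the octamer, 2.86% the open form (which contains the octamer) and 13.0% the E-box. The first 7 letters of the octamer, searched after the sequences were seen, occur in the Avil window on the plus strand at base 236 and on the minus strand at base 136, counted from 1 at the 5′ end. Of all windows 4.12% hold them.

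Avil, advillin, an actin-binding protein of the villin family, is the member measured without the floor. Its level was 4.81 at the lowest, 5.03 at the median and 5.32 at the highest in the 9 heme mice (log2), against 5.48, 5.87 and 6.12 in the 6 controls. The groups did not overlap, although the highest heme mouse and the lowest control were 0.16 apart. The means were 5.06 ± 0.16 in heme mice and 5.85 ± 0.27 in controls (SD), and Avil was 1.73-fold lower with heme, a log2 difference of -0.79 ± 0.11 (SE) with an adjusted p of 2.58e-05 by limma.

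Trpm5, the calcium-gated channel at the end of the taste cascade, was over the floor in every control and in 0 of 9 heme mice. The probe set 1418783_at ran from 3.44 to 3.88 with a median of 3.57 in heme mice, against 4.65 to 5.20 with a median of 4.77 in controls. The gap between the groups was 0.78. Trpm5 was lower with heme by at least 1.42-fold, a bound set against the floor. The measured means were 3.62 ± 0.15 in heme mice and 4.83 ± 0.21 in controls (SD). The adjusted p of 1.37e-07 (limma) belongs to these measured values and not to the bound. The other probe sets of Trpm5 were under the floor in every mouse. In 1443413_s_at, which ran from 1.52 to 2.15 in heme mice and from 2.26 to 2.97 in controls, the groups also did not overlap, whereas 1449224_at ran from 2.21 to 2.56 in heme mice and from 2.15 to 2.73 in controls.

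Dclk1, a microtubule-associated kinase that is widely used as a tuft cell marker, had 2 probe sets that passed the filter. In 1450863_a_at the heme mice had 3.33 at the lowest, 3.87 at the median and 4.80 at the highest, against 5.25, 5.37 and 5.47 in controls. The controls were close together (5.36 ± 0.09, SD) and the heme mice were spread (3.96 ± 0.45), with heme mice 6 (4.80) and 7 (4.38) the only ones over the floor. The difference was -1.40 ± 0.17 (SE, adjusted p = 1.16e-05, limma), or -0.98 with values under the floor set to it. In 1435940_at the heme mice ran from 3.81 to 4.59 with a median of 4.04, against 4.56 to 5.64 with a median of 4.68 in controls. Here 8 of 9 heme mice were below the lowest control, and heme mouse 9 (4.59) overlapped them. This probe set differed by -0.75 ± 0.16 (adjusted p = 0.00119, limma), or by -0.51 with values under the floor set to it.

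**Figure D1:**
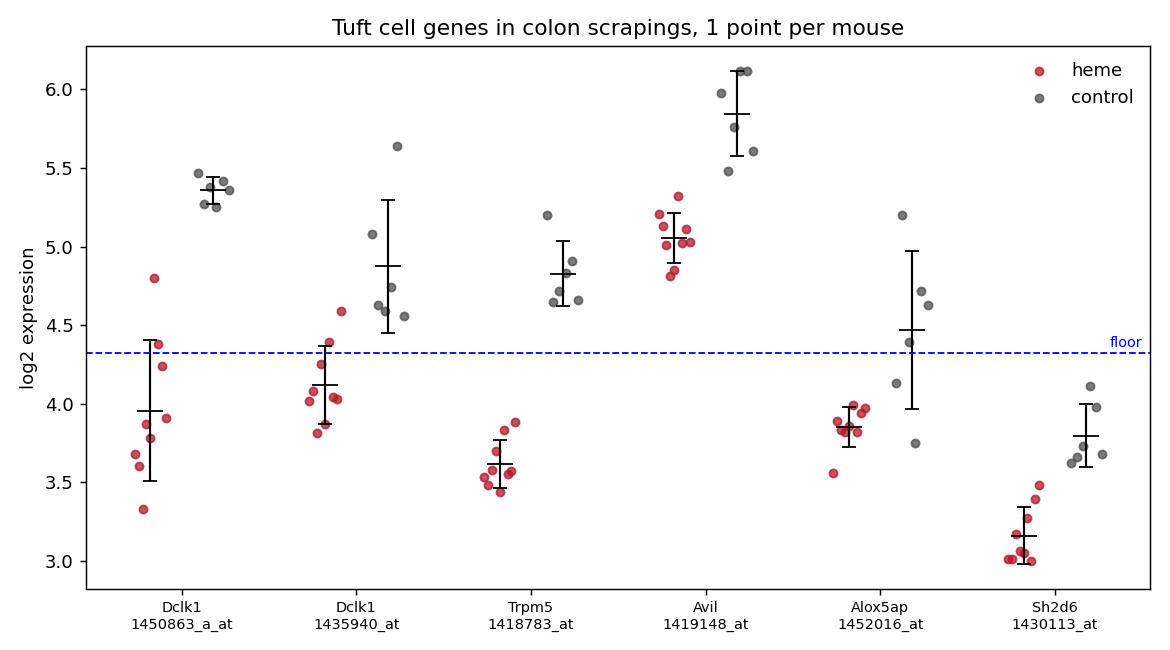
Log2 expression (vertical axis) of 6 probe sets of tuft cell genes, 1 point per mouse, with heme mice (red, n = 9) left of controls (grey, n = 6), the mean and SD in black and the floor of 4.32 as a dashed line. The groups do not overlap for Avil, Trpm5, Sh2d6 and the first Dclk1 probe set, they overlap for Alox5ap and in 1 heme mouse for the second Dclk1 probe set, and Sh2d6 lies under the floor in every mouse.

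The other 7 probe sets of Dclk1 were under the floor in every mouse, so no fold is given. Of these, 1446190_at ran from 2.46 to 2.90 in heme mice and from 3.06 to 4.25 in controls, and 1451289_at from 1.81 to 2.30 in heme mice and from 2.38 to 2.90 in controls, without overlap. At the other end 1451917_a_at had a mean of 3.17 ± 0.12 in heme mice and 3.16 ± 0.12 in controls (SD). In 1424270_at the heme mice ran from 1.79 to 2.63 and the controls from 2.25 to 3.18, and in 1424271_at the heme mice ran from 2.51 to 3.12 and the controls from 2.75 to 3.41, so these overlapped. The remaining probe sets, 1436659_at and 1423125_at, had means of 2.34 and 2.15 in heme mice and 2.65 and 2.32 in controls.

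Sh2d6, an adaptor with an SH2 domain, was also under the floor in all mice, with 3.16 ± 0.18 (SD), a median of 3.06 and a highest value of 3.48 in heme mice, against 3.79 ± 0.20, a median of 3.70 and a lowest value of 3.62 in controls. No heme mouse reached the lowest control, but both groups had only a bound. Alox5ap, the membrane protein that hands arachidonic acid to 5-lipoxygenase for leukotriene synthesis, was under the floor in all heme mice (3.56 to 3.99, median 3.86) and over it in 4 of 6 controls (3.75 to 5.20, median 4.51). The gene did not pass the filter and not all controls were over the floor, so neither a fold nor a bound is given. Of the 9 heme mice 8 overlapped the controls. Control mouse 2 was the highest at 5.20 and control mouse 4 the lowest control at 3.75. Alox5ap is also a gene of myeloid cells, and the summed signal of 12 macrophage and neutrophil markers was 1139 to 1594 in heme mice and 793 to 3157 in controls, with control mouse 2 the highest and control mouse 4 at 848. Its part in the Alox5ap values was not tested.

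Single mice did not keep 1 rank across the members. Heme mouse 6 was the highest of its group for Avil (5.32), for Dclk1 (4.80 in 1450863_a_at) and for Alox5ap (3.99), while heme mouse 9 was the highest for Trpm5 (3.88, with heme mouse 6 at 3.83). Control mouse 2 was the lowest control for Avil (5.48) and Trpm5 (4.65) and, as given above, the highest for Alox5ap. Control mouse 4 was the lowest control for Dclk1 in 1450863_a_at (5.25), control mouse 7 was in 1435940_at (4.56), and control mouse 4 was at the top for Avil (6.12, as was control mouse 6).

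The remaining members sat at the bottom of the array's range in both groups. Pou2f3 had a mean of 2.41 ± 0.12 in heme mice and 2.38 ± 0.09 in controls (SD). Gfi1b, a zinc-finger repressor that marks tuft cells in the gut, had 2.38 ± 0.15 in heme mice and 2.36 ± 0.09 in controls. Il25 had 1.70 ± 0.11 in heme mice and 1.75 ± 0.10 in controls. For the lineage factors and the cytokine, then, the groups overlapped and no level over the floor was measured, so the arrays do not say whether they changed.

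A fit without the filter, in which all 45037 probe sets were tested, does not select members by where they were high. There 10 of the 18 probe sets were lower and 0 were higher (limma, adjusted p under 0.05), beside 12.7% of all probe sets lower and 11.7% higher. The 10 were 5 of Dclk1, 2 of Trpm5 and those of Avil (adjusted p = 3.79e-05), Alox5ap (adjusted p = 0.00801) and Sh2d6 (adjusted p = 1.21e-04, limma). For Pou2f3, Gfi1b and Il25 the adjusted p was 0.787, 0.923 and 0.618 in that order (limma). The groups were separate, with heme below, in 7 of the 18, beside 3.99% of all probe sets. Probe sets of 1 gene share its transcripts and are not independent of each other.

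**Figure D2:**
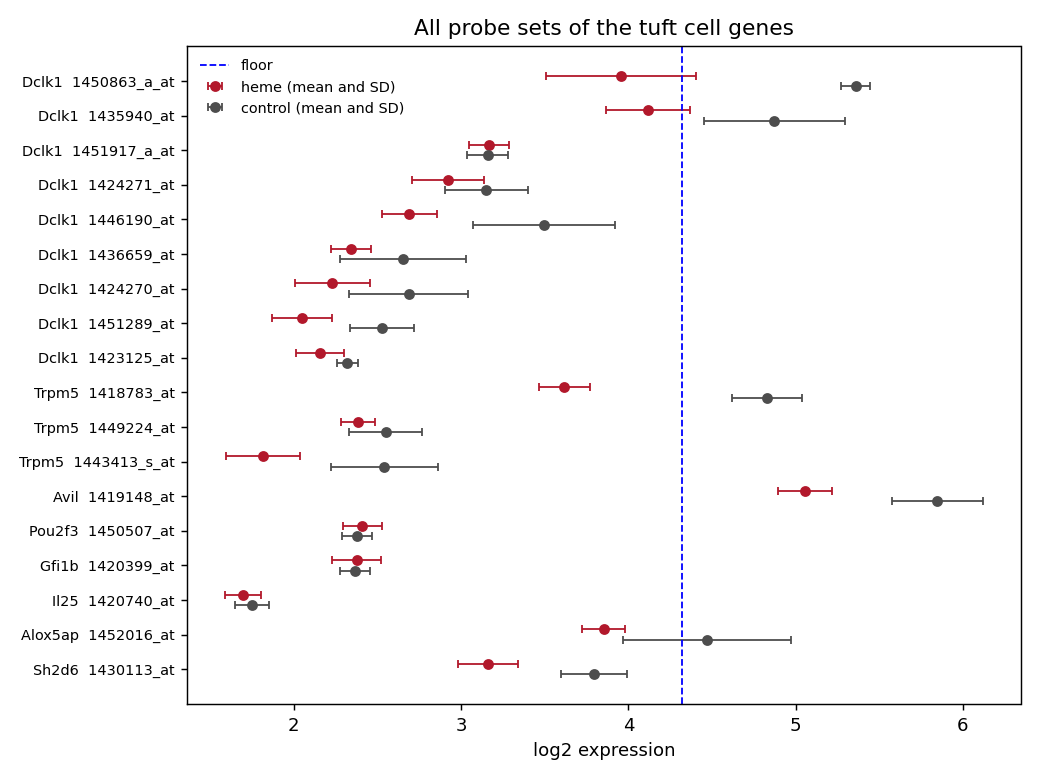
Mean and SD of log2 expression (horizontal axis) for the 18 probe sets of the 8 genes, with heme mice (red, n = 9) above controls (grey, n = 6) and the floor of 4.32 as a dashed line. Avil is the only gene with both means over the floor, and Pou2f3, Gfi1b and Il25 lie at or under 2.41 in both groups.

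A wider set of 88 genes in 5 lists covered the signalling, lipid mediators and circuit of tuft cells and the factors of their lineage. Of these 78 had a probe set and 37 were tested, each by the probe set with its highest mean. Lower in heme mice were 21, higher were 4 and 12 were not called, beside 25.9% of all 9256 genes tested lower and 26.7% higher. The median log2 change of the 37 was -0.36, beside -0.01 over all genes tested. Counting only the 35 that were over the floor in every mouse, 19 were lower, beside 25.7% of all genes of that kind. Many of these genes are also used by other cells of the colon.

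Among other tuft cell markers 8 of the 15 tested were lower and 2 higher, beside 25.9% of all genes tested lower and 26.7% higher. Rgs13, a regulator of G protein signalling found in tuft cells and in some leukocytes, fell most, by 1.43 ± 0.15 (SE, adjusted p = 2.57e-06, limma). It ran from 6.39 to 7.59 in heme mice and from 8.15 to 8.50 in controls, without overlap and well over the floor in every mouse. Lrmp, a calcium-store protein of lymphoid and tuft cells, fell by 0.99 ± 0.29 (adjusted p = 0.0108), but controls were spread from 4.78 in mouse 4 to 7.33 in mouse 3, and every heme mouse was above control mouse 4. Ptprc (CD45, the leukocyte phosphatase that tuft cells can carry) fell by 1.04 ± 0.26 (adjusted p = 0.00403). Beside Ptprc and Lrmp, the summed signal of 10 lymphocyte markers was 87.4 to 155 in heme mice and 202 to 365 in controls, and the protease Gzma was the only one of them tested and called lower. It was over the floor in 1 of 9 heme mice and 6 of 6 controls, with a fitted difference of -3.59 ± 0.24 (SE) and one of -3.05 with values under the floor set to it. Without Gzma the other 9 summed to 76.7 to 144 in heme mice and 106 to 190 in controls, so the groups then overlapped. The heme mean was lower for 6 of the 9 and higher for 3. In the fit without the filter, which called 12.7% of all probe sets lower, Cd3g and Gzmb were lower (adjusted p = 2.42e-05 and 7.24e-05, limma). Itgae and Cd3e were as well (adjusted p = 0.00163 and 0.00687, limma). All of these were under the floor in every heme mouse, and Cd8a, Cd4, Cd79a, Cd79b and Ms4a1 were not called. The part of lymphocytes in the Ptprc and Lrmp values was not tested. Sox9, Fyb, Ccdc28b, Tuba1a and Cd24a fell by 0.44 to 0.74, of which Fyb, a leukocyte adaptor, was over the floor in 2 of 9 heme mice. The genes that rose were Ildr1, a tricellular junction protein (0.73 ± 0.09), and Espn, an actin bundler of microvilli (0.40 ± 0.12).

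In the taste-type cascade only 3 of 10 genes were over the filter. Of these 2 were lower and 0 higher, beside 25.9% of all genes tested lower and 26.7% higher. Itpr2, a calcium release channel, had a mean of 5.49 ± 0.23 in heme mice and 6.35 ± 0.28 in controls (SD) and fell by 0.86 ± 0.12 (SE, adjusted p = 4.83e-05, limma). Pde2a, a cyclic nucleotide phosphodiesterase, fell by 0.76 ± 0.12 (adjusted p = 1.23e-04), and for both the highest heme mouse was below the lowest control. Itpr3, the release channel that serves Trpm5 in taste cells, was not called (-0.17 ± 0.08). Plcb2, Gnb3, Gng13, the taste receptors Tas1r1, Tas1r2 and Tas1r3 and the succinate receptor Sucnr1 were under the floor in every mouse.

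Of 6 tested eicosanoid genes 2 were lower, 1 was higher and 3 were not called, which is near the 25.9% lower and 26.7% higher of all genes tested. Hpgd, which breaks prostaglandins down, fell by 1.04 ± 0.11 (SE, adjusted p = 3.21e-06), and Ptger4, a receptor for prostaglandin E2, by 0.46 ± 0.11. Cbr1, a carbonyl reductase that also acts on prostaglandins, rose by 0.95 ± 0.07 (adjusted p = 1.02e-07, limma). The synthesis enzymes that tuft cells are known for, Alox5, Ltc4s and Hpgds, were under the floor in every mouse, and Pla2g4a, the phospholipase that frees arachidonic acid, was not called (-0.12 ± 0.08).

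Of 4 tested genes of the type 2 circuit 2 were lower and 1 higher, beside 25.9% of all genes tested lower and 26.7% higher. Il13ra1 (-0.40 ± 0.11, SE) and its signal transducer Stat6 (-0.36 ± 0.08) fell, and Il4ra was not called. Retnlb, a goblet cell product that interleukin 13 induces, rose by 0.89 ± 0.34 (adjusted p = 0.0399, limma). It was at 11.00 to 12.15 in heme mice and at 9.76 to 12.68 in controls, with control mouse 2 the highest of all, and leaving out any of 9 mice (heme mouse 2, 4, 7, 8 or 9 or control mouse 1, 3, 4 or 7) ended the call, at worst at 0.69 (adjusted p = 0.108). Without control mice 2 and 4 and heme mouse 6 it was 1.25 (adjusted p = 0.00141, limma). The cytokines Il4, Il5, Il13 and Il33 were under the floor in every mouse.

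Of 9 tested secretory lineage factors 7 fell and 0 rose, beside 25.9% of all genes tested lower and 26.7% higher. Neurog3, under the floor in every mouse and not tested, was higher in the fit without the filter (adjusted p = 0.0180, limma). Neurod1, an endocrine factor, fell by 0.98 ± 0.16 (SE), the Notch ligand Dll1 by 0.79 ± 0.13 and Notch1 by 0.69 ± 0.13, with adjusted p from 1.43e-04 to 3.39e-04 (limma). Atoh1, the factor that commits cells to the secretory fate, had a mean of 9.99 ± 0.13 in heme mice and 10.35 ± 0.24 in controls (SD), with every heme mouse below the lowest control, by 0.01 at the closest.

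**Figure D3:**
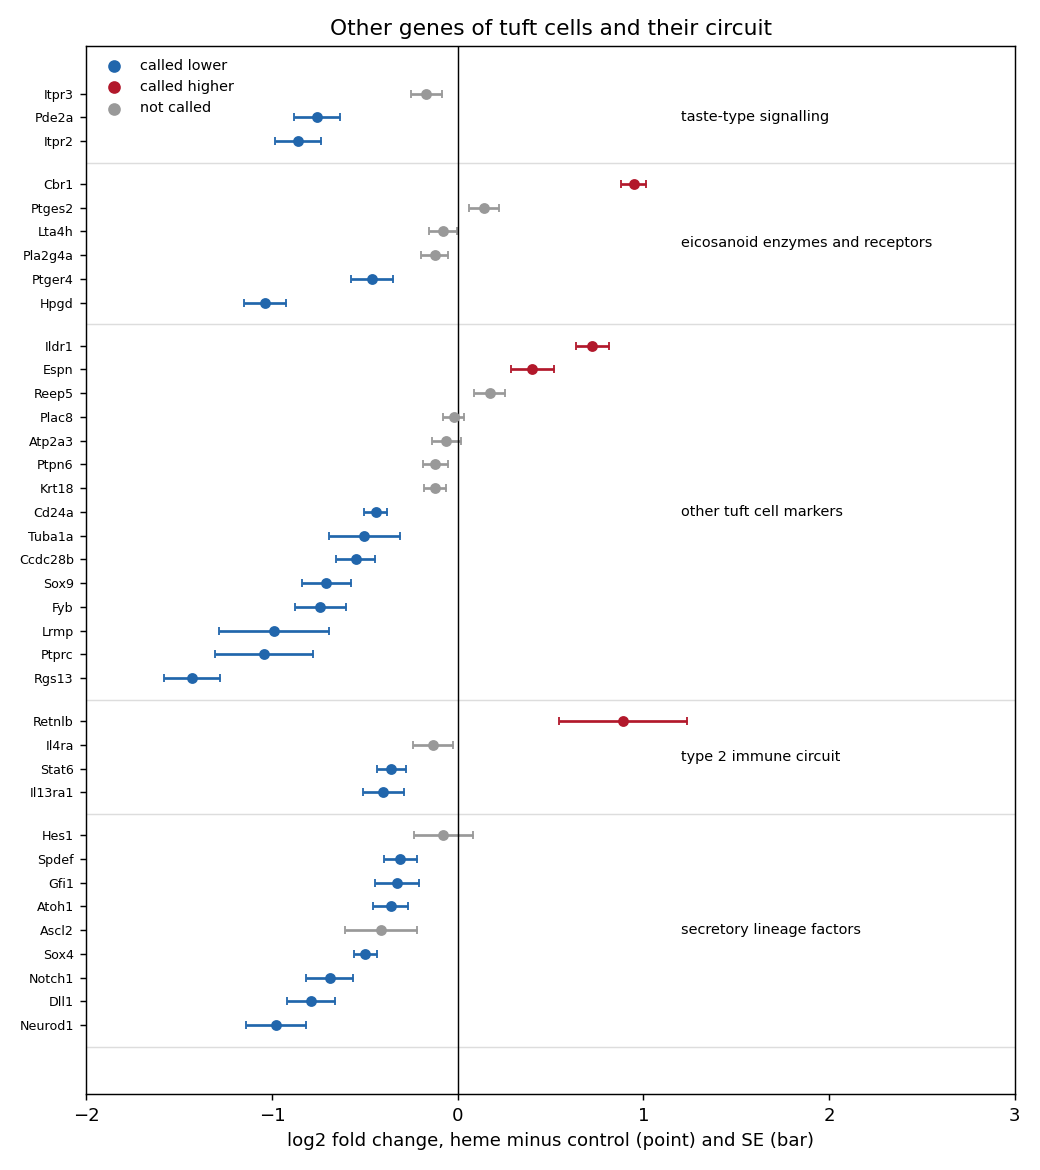
Log2 fold change, heme minus control (horizontal axis, point), with its SE (bar) for the 37 tested genes of the 5 lists, coloured by the limma call at an adjusted p under 0.05. Of these 21 are lower and 4 higher in heme mice, with Rgs13 the lowest at -1.43 and Cbr1 the highest at 0.95.

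Of the 41 genes of the wider lists that were not tested, the groups were separate, with heme below, for 5, Vav1, Cd300lf, Bmx, Matk and Pik3r5, beside 1.10% of all genes not tested. In the fit without the filter 12 of the 41 were lower and 3, Gnb3, Neurog3 and Ptgs2, were higher. That fit called 12.7% of all probe sets lower and 11.7% higher, a share over probe sets and not over genes. Cd300lf, a surface receptor of tuft and myeloid cells, ran from 2.95 to 3.34 in heme mice and from 3.34 to 4.10 in controls, under the floor throughout. Siglecf, a lectin of tuft cells and eosinophils, was under the floor in all heme mice (2.96 to 3.73) and over it in 4 of 6 controls (3.56 to 5.14).

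Within the groups, the genes whose pattern was most like that of the members were sought among 9253 tested genes, with the mean of Dclk1, Trpm5 and Avil, each centred on its group mean, as the pattern over 15 arrays. The highest Pearson r was that of Plaat3 (0.87), a phospholipase, followed by Prkca (0.85), protein kinase C alpha, Tnfsf10 (0.83), the death ligand TRAIL, Psme1 (0.83), a proteasome activator, and Cyp4v3 (0.81). Trpm5 was under the floor in all heme mice and Dclk1 in 7 of 9, so much of the pattern within the heme group rests on values that have no reliable size. These values are a description of the 5 highest of many genes, and the arrays share their normalization.

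Markers of other cell types moved with the diet beside the tuft cell genes. Their counts are to be read beside 25.9% of all genes tested lower and 26.7% higher. Enteroendocrine markers, the other rare secretory lineage, had a summed signal of 4672 to 5973 in heme mice and 8115 to 11865 in controls, with 6 of 9 tested lower and Resp18, a secretory granule protein, at least 5.65-fold lower. The 3 not called were the hormone genes Pyy (-0.19 ± 0.12, SE), Gcg (-0.11 ± 0.12) and Insl5 (0.69 ± 0.75), so not all markers of the lineage fell. With the mean of all enteroendocrine markers as a covariate 0 member probe sets were called, at -0.54 for Dclk1 (1450863_a_at, adjusted p = 0.808) and -0.75 for Avil (adjusted p = 0.555), and the adjusted p of Trpm5 was 0.388 (limma). These markers separate the diets almost as well as the diet itself (R squared 0.92), and 19 of all 17855 probe sets were called with them, so this covariate and the diet cannot be told apart. Goblet cell markers summed to 85478 to 94653 in heme mice and 95135 to 100194 in controls, with 4 of 8 lower and Fcgbp falling by 0.54 ± 0.08 (SE). Colonocyte markers summed to 80281 to 87970 in heme mice and 73795 to 77073 in controls, with 5 of 9 higher and 1 lower, and Aqp8 rose by 1.30 ± 0.14. Without Fcgbp the goblet sums, and without Aqp8 the colonocyte sums, overlapped between the groups. Smooth muscle markers summed to 348 to 949.5 in heme mice and 635 to 6083 in controls, and all 5 tested fell, Myh11 by 2.45 ± 0.39. Mast cell and basophil markers summed to 413 to 699 in heme mice and 618 to 1360 in controls, but most of that sum was Kit, which several cell types express and which was the only one tested (-1.28 ± 0.18). Without Kit the other 11 summed to 71.9 to 145 in heme mice and 55.6 to 68.6 in controls, the opposite direction. The heme mean was above the control mean for 11 of 11, but among all genes not tested it was below in only 40.6%. Of the 11, 9 were under the floor in every mouse. The proteases Mcpt1 (mean 4.62 in heme mice, 2.96 in controls) and Mcpt2 (4.37 and 2.87) differed most, while Gata2 hardly differed (2.55 and 2.54). Cpa3, Fcer1a and Ms4a2 were under the floor in every mouse. Enteric neuron and glia markers, relevant because neurons express Dclk1, summed to 78.6 to 89.1 in heme mice and 96.0 to 119 in controls, with 10 of 11 under the floor in every mouse. That gap was mostly Snap25, a synaptic protein that endocrine cells also express, and without it the other 10 overlapped, at 67.7 to 78.9 in heme mice and 70.3 to 78.2 in controls. The part of the goblet, colonocyte, mast cell and neuron markers in the tuft cell values was not tested.

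The smooth muscle markers shared part of their spread with the diet (R squared 0.52), so a fit with them cannot fully separate them from it. With their mean as a covariate the fitted difference was -1.38 ± 0.26 (SE, adjusted p = 9.60e-04, limma) for Dclk1 (1450863_a_at). For Avil it was -0.97 ± 0.15 (adjusted p = 2.06e-04, limma). With the macrophage and neutrophil markers as a covariate it was -1.40 for Dclk1 and -0.75 for Avil. Trpm5, for which only the bound has a size, also kept its call with both. Control mouse 2 had the highest muscle and stromal sums. In control mouse 4 distal colon Hox genes had a sum of 43.6 against 943 to 3848 in other controls. These controls and heme mouse 6 were the mice named above as left out. Without these 3 mice the fitted difference was -1.56 for Dclk1 and -0.85 for Avil, and Trpm5 was still called lower. No marker sum is given here that sets heme mouse 6 apart. It was the highest heme mouse for Dclk1 (1450863_a_at) and Avil, and leaving it out alone gave -1.51 and -0.82. The larger differences without the 3 mice therefore carry no weight of their own. Summed platelet markers (56.5 to 85.7 in heme mice, 56.8 to 121 in controls), fibroblast markers (906 to 2396 in heme mice, 613 to 8177 in controls) and endothelial markers (36.0 to 59.6 in heme mice, 31.4 to 110 in controls) overlapped between the groups. Gp1bb, a platelet adhesion receptor subunit, fell by 0.68 ± 0.20 (SE), a call lost without the 3 mice (-0.48, adjusted p = 0.0862, limma).

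**Figure D4:**
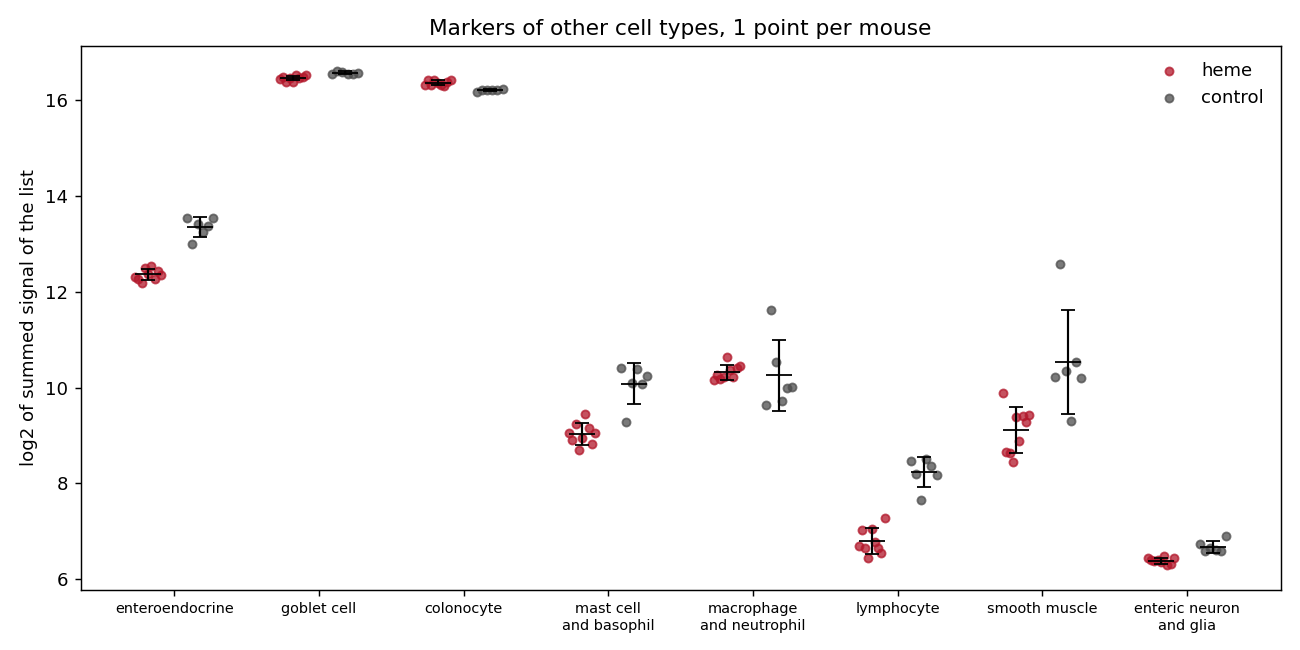
Log2 of the summed signal (vertical axis) of markers of 8 other cell types, 1 point per mouse, with heme mice (red, n = 9) left of controls (grey, n = 6) and the mean and SD in black. Enteroendocrine, goblet, lymphocyte and enteric neuron sums are lower and colonocyte sums higher in all heme mice, macrophage and neutrophil sums overlap, and the mast cell and basophil sum is mostly Kit.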

How the data were processed

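Colon scrapings of 15 mice were measured, 1 Affymetrix mouse array each. The authors deposited log2 values, 1 per probe set and mouse, which come from GCRMA 2.22.0, per the submitters' processing notes. This method models background from the bases of each probe, quantile normalizes and combines the probes of a set. Other steps: not given in the sources used here. GCRMA compresses low signals, so values under the floor have no reliable size.

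Of the 45101 probe sets 34958 had 1 symbol in the annotation of the array, 932 had several and 9211 had none listed. The 17855 probe sets whose signal passed 20 in 6 or more mice were tested, without 64 array controls. The test was limma (version 3.58.1, R 4.3.3), two-sided, with lmFit, eBayes and Benjamini-Hochberg adjustment over the probe sets tested, at a threshold of 0.05. Differences are heme minus control. In lists a gene was represented by the probe set that was brightest on average. Members without a fold were not tested. The number of arrays limits the precision.

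Members and lists were chosen with earlier results of these data known. Named were all member probe sets, the 3 largest called falls and 2 largest called rises of each tuft cell list, the largest called change of each other list, and the 5 genes most like the members. Other genes were named after their values were seen. Correlations between members were planned for genes over the floor on all arrays; 1 gene was, so none is given. The fit was tested on simulated data. Alternatives were other filters, summaries, normalizations, variance models, covariates, the replicate block and leaving out mice.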

Additional observations from a re-analysis of the deposited data

Results flagged for a closer look

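Of the 36 sets of values examined (18 probe sets in 2 groups), 3 held a mouse far from the others, and chance flags about 1 in 20. All 3 values lay under the floor. In the Dclk1 probe set 1436659_at control mouse 2 was at 3.40, the next control at 2.58 and the lowest at 2.38. In the Dclk1 probe set 1451289_at control mouse 6 was at 2.90, the next at 2.53 and the lowest at 2.38. In Alox5ap heme mouse 1 was at 3.56, the next heme mouse at 3.82 and the highest at 3.99.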

How the results depend on the processing

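The 4 tested member probe sets kept their direction and call in every alternative that could test them except the enteroendocrine covariate. With a floor of 100, 0 member probe sets, or 0 genes, could be tested. Without a filter 10 probe sets and 5 member genes were lower, and with probe sets averaged per gene 1 of 1 tested member gene was (3 genes otherwise), since Dclk1 and Trpm5 then failed the filter. The enteroendocrine covariate, chosen after seeing the data, gave 0 calls for member probe sets, member genes and other tuft cell genes in either direction, with fitted differences of -0.54 and -0.37 for Dclk1 and -0.75 for Avil. Its R squared with the diet was 0.92, so it leaves little of the diet to estimate, and 19 of 17855 probe sets were called. Omitting single mice, with the tested probe sets held fixed, gave 4 probe sets and 3 genes lower each time, 20 to 22 other tuft cell genes lower and 3 to 4 higher. Fitted differences then ran from -1.51 to -1.33 and from -0.82 to -0.60 for Dclk1 and from -0.86 to -0.74 for Avil. Trpm5 is left out of these sizes, since all heme mice were under the floor. With the replicate block 4 member probe sets, 19 other tuft cell genes lower and 3 higher were called, beside 7093 of all 17855 probe sets in either direction. Mice of the same number correlated between -0.23 and 0.11 in their deviations. These values show no pairing by number, but they cannot exclude one. Without a filter 31 of 78 other tuft cell genes were lower and 6 higher, beside 12.7% of all probe sets lower and 11.7% higher. The share is over probe sets, of which a gene can have several, while the 78 were genes by their brightest probe set. No share over genes is given for that fit, so the size of the contrast cannot be read. With the smooth muscle covariate 14 of 37 were lower and 3 higher. Calls over all 17855 probe sets, in either direction, also dropped with that covariate, to 6726 from 9117 in the main fit.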

Other observations

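Proteases of mucosal mast cells were measured over the floor in heme mice and not in controls. Mcpt1 and Mcpt2 were over the floor in 5 of 9 heme mice each and in 0 of 6 controls. Mcpt1 ran from 3.64 to 5.93 in heme mice and from 2.62 to 3.35 in controls, and Mcpt2 from 3.47 to 5.06 in heme mice and from 2.80 to 2.96 in controls. Ptgs2, the inducible cyclooxygenase, was over the floor in 3 of 9 heme mice and 0 of 6 controls, at 2.88 to 4.73 in heme mice and 2.47 to 3.80 in controls. None of the 3 passed the filter, and they were chosen after their values were seen. In the fit without the filter Mcpt1 (adjusted p = 0.0013), Mcpt2 (adjusted p = 3.28e-05) and Ptgs2 (adjusted p = 0.0403, limma) were called higher.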
